A study of Rattus norvegicus with 8 samples.

Results

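Cartpt, Calcr, Nts, Crym, Dlk1, Wfs1, Zcchc12 and Peg10 are 8 genes known for higher expression in the ventral than in the dorsal striatum of rodents. They were chosen by name, with the METH to saline contrast and the variation from rat to rat of these same libraries already in view. Their own levels, fold changes and correlations are therefore given as a description, with no p-value of their own, and the numbers of members called are printed only beside the share of all genes called. Of the 8 genes, 7 had a row in the count table of 17337 genes, and all 7 of these passed the filter on low counts. Peg10 had no row under its symbol or its synonyms and was not analysed here, apart from its promoter.

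The counts came from the striatum of 8 male wild-type Sprague-Dawley rats. The METH group (n = 4) self-administered methamphetamine, a psychostimulant that releases dopamine, at 0.05 mg/kg per intravenous infusion for 2 h per day over 16 days. The saline group (n = 4) self-administered saline on the same schedule, and both groups carried a jugular catheter and had been trained on the lever with food. Rats with a stable response were selected, which limits both groups as a model of all exposed animals. The rats' ages, the time from the last session to collection of the brain, and the dorsal and ventral borders of the dissection are not given in the sources used here. Each library was made from the poly(A) RNA of 1 rat, and no separately dissected ventral piece was analysed here, so the regional label of these genes could not be checked directly.

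The ventral striatum, which includes the nucleus accumbens, takes part in reward and motivation, and the dorsal striatum in the control of movement and habit. Both are built mainly from GABAergic projection neurons that carry either D1 or D2 dopamine receptors, and expression of many genes changes gradually along the dorsal to ventral axis. Cartpt encodes the precursor of the CART peptides, which are induced by psychostimulants and act in the nucleus accumbens. Nts encodes the precursor of neurotensin, a peptide that modulates dopamine transmission. Calcr encodes the calcitonin receptor, which binds amylin when paired with a RAMP protein. Crym encodes mu-crystallin, a cytosolic protein that binds thyroid hormone. Dlk1 encodes a membrane protein related to the Notch ligands, Wfs1 encodes wolframin of the endoplasmic reticulum, and Zcchc12 encodes a zinc finger protein that acts as a coactivator in BMP signalling. Dlk1 and Peg10 are expressed from the paternal allele, and Peg10 derives from a retrotransposon.

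Promoters of 7 of the 8 genes were found in the RefSeq table of assembly GRCr8, and Crym had no entry. The 250 bases before the annotated start are shown for the peptide genes Cartpt and Nts and for the receptor gene Calcr, because their fold changes lay at both ends of the range among the members. Sequences run from 5′ to 3′ on the strand of the gene, and all 3 genes lie on the minus strand. Capitals mark TGACGTCA (the full cyclic AMP response element), TGACG or CGTCA (its shorter form on either strand) and TGANTCA (the AP-1 motif), all searched on both strands. The positions are chr2:32991236-32991485 for Cartpt, chr4:32691076-32691325 for Calcr and chr7:39460889-39461138 for Nts.
Cartpt: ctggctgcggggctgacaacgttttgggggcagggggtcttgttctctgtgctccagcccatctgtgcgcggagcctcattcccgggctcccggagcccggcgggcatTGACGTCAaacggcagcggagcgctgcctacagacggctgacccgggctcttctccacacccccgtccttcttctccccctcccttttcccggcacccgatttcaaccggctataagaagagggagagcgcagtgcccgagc
Calcr: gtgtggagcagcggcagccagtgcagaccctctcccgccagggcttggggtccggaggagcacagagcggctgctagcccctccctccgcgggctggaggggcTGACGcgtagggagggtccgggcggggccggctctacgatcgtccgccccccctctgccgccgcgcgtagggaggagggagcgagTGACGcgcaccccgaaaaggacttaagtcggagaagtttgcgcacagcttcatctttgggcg
Nts: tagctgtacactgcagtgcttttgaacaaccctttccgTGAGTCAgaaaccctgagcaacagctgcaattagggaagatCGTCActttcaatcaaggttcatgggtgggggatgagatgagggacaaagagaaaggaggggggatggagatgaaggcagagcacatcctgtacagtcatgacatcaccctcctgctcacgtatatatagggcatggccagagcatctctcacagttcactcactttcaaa
The Cartpt window held TGACGTCA, beginning 142 bases before the start, and that match contains both forms of the shorter motif. TGACGTCA was present in 1.70% of the 27457 promoter windows of the same length. The Calcr window held TGACG at 2 positions, 147 and 62 bases before the start, and the Nts window held TGAGTCA, an AP-1 match, at 212 bases and CGTCA at 171 bases. TGACG was present in 19.0% of all windows and TGANTCA in 6.36%. Among the other 4 windows, Zcchc12 held 1 TGACG on its minus strand, 20 bases before the start, and those of Dlk1, Wfs1 and Peg10 held none of these motifs. GGGCGG, the GC box, occurred at 2 positions in each of Calcr, Dlk1, Wfs1, Zcchc12 and Peg10, against at least 1 match in 32.4% of all windows. These are letter matches, and no binding was measured.

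Total counts lay between 18135939 and 21211920 per rat, and TMM scaling factors between 0.956 and 1.02. Within each group, the counts of any pair of rats differed beyond sampling noise, with a chi-square of 10.1 to 27.6 for each degree of freedom. Each rat was counted as a separate replicate, since every library came from a different animal. The library of METH rat 3 stood apart, at 39.5 on the first principal component against 0.257 to 5.29 for the other METH rats, and saline rat 3 lay at -24.6 against -11.7 to -4.17 for the other saline rats. Markers of striatal projection neurons were high in every rat, with a summed level of 15512 to 16582 CPM in saline rats and 16410 to 20404 CPM in METH rats, the highest being METH rat 3. Markers of neighbouring tissue stood out in 3 libraries. The cortical marker Slc17a7, a vesicular glutamate transporter, was at 65.8 CPM in saline rat 1 and at 3.12 to 12.2 CPM in the other rats, and the hypothalamic peptide genes Oxt and Avp were highest in METH rat 4 and saline rat 2. For the members and the lists compared with them, some values without one of these rats are given beside the value from all rats.

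Levels are given as CPM, counts divided by the TMM-scaled library size, and a log2 fold change is METH minus saline from the edgeR fit, with its standard error. In the METH group, 5 of the 7 members had a lower mean than in the saline group and 2 had a higher mean. The 4 METH rats lay wholly below the 4 saline rats for 2 members, Cartpt and Calcr, where 2.65% of the 12014 genes tested were separated in this direction, 3.75% in the other and 6.39% in either. Under the call rule used here (FDR below 0.05 by the edgeR quasi-likelihood test and mean log2 CPM above 1), 0 of the 7 were called, where 0.516% of all genes were called and 0.0666% were called lower. At an unadjusted p below 0.05, 3 of the 7 were lower, where 4.88% of all genes were lower and 6.26% higher. DESeq2, which called 1.59% of all genes, called 1 of the 7, Cartpt, and limma-voom, which called 0.499%, called 0. Because the members were picked with this contrast in view, nothing is read from these counts. The median log2 fold change of the 7 was -0.27, beside -0.0055 for all genes tested.

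**Figure D1:**
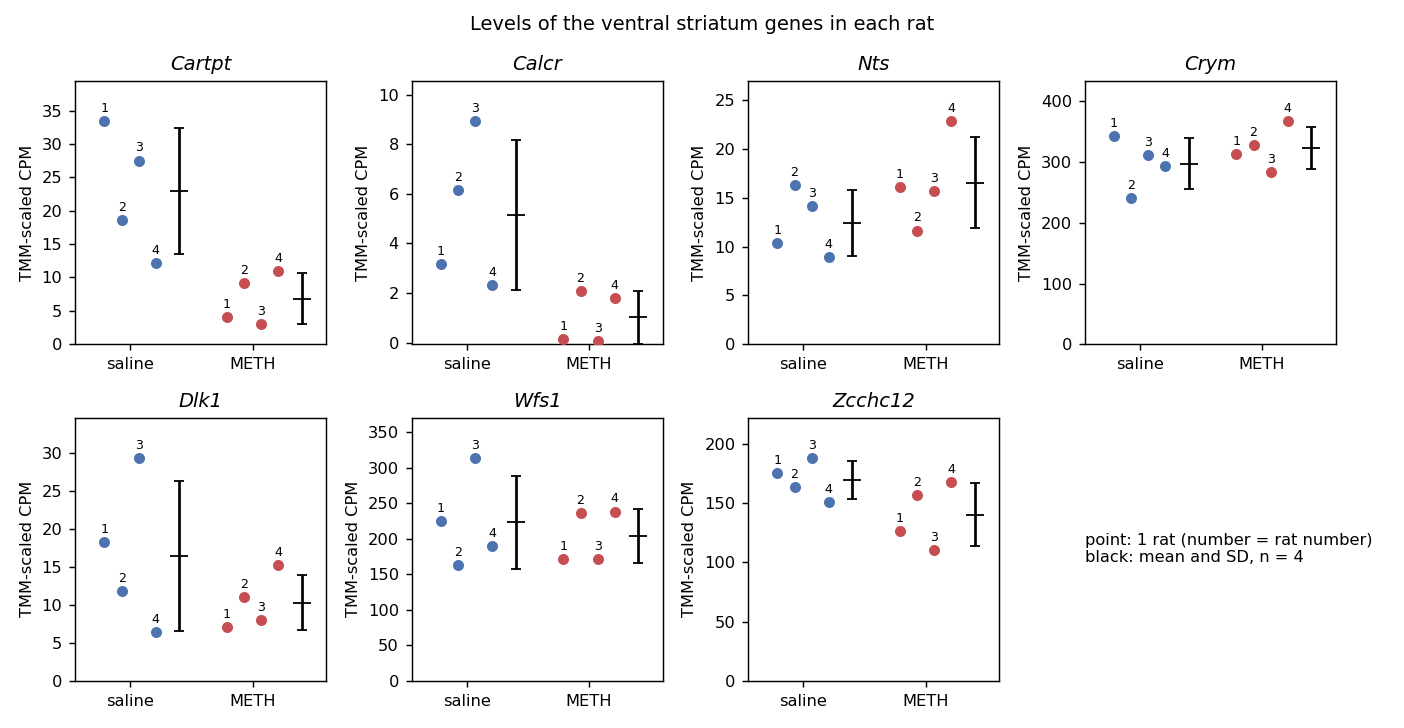
Level of each of the 7 members in every rat, with TMM-scaled CPM on the vertical axis (a separate scale for each gene) and the group on the horizontal axis. Points are rats, labelled with the rat number, and black bars give the mean and SD of each group (n = 4). Cartpt and Calcr are the members whose METH points all lie below the saline points.

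Cartpt was at 33.4, 18.6, 27.5 and 12.2 CPM in saline rats 1 to 4 (609, 372, 570 and 258 counts). In METH rats 1 to 4 it was at 4.11, 9.19, 3.05 and 10.9 CPM (84, 193, 54 and 207 counts). The 4 METH values were all below the 4 saline values, although the exact 95% Poisson interval of METH rat 4, 9.48 to 12.5 CPM, reached above the 12.2 CPM of saline rat 4. Those 2 rats therefore did not differ beyond counting error. The mean was 22.9 ± 9.41 CPM (SD, n = 4) in the saline group and 6.82 ± 3.83 CPM (SD, n = 4) in the METH group, a 3.37-fold lower level in METH. The log2 fold change of -1.74 (SE 0.37) was the 4th lowest of the 12014 genes tested (0.0333% were as low). It was -1.51 without METH rat 3, -1.51 without saline rat 1, -1.27 without both, and -2.06 without METH rat 4. In bulk tissue, fewer cells that express a gene and less RNA per cell cannot be told apart, and this holds for each gene described here.

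Calcr had the lowest log2 fold change of all genes tested, on few counts. In saline rats 1 to 4 it was at 3.18, 6.15, 8.94 and 2.32 CPM (58, 123, 185 and 49 counts). In METH rats 1 to 4 it was at 0.147, 2.09, 0.0565 and 1.79 CPM (3, 44, 1 and 34 counts). The METH group thus fell into a pair of rats with almost no reads and a pair just below the lowest saline rat. The exact 95% Poisson intervals, which cover counting error only, were 0.0303 to 0.429 CPM in METH rat 1 and 0.00143 to 0.315 CPM in METH rat 3. They were 1.52 to 2.81 CPM in METH rat 2 and 1.24 to 2.50 CPM in METH rat 4, so the difference between the low and the high pair exceeded counting error. The interval of METH rat 2 also reached above the 2.32 CPM of saline rat 4, so at this depth the separation of the groups was not larger than the counting error of those 2 rats. The mean was 5.15 ± 3.01 CPM (SD, n = 4) in the saline group and 1.02 ± 1.07 CPM (SD, n = 4) in the METH group, a log2 fold change of -2.31 (SE 0.69). It was -1.93 without METH rat 3, -1.94 without METH rat 1, -2.94 without METH rat 2 and -1.91 without saline rat 3. With a prior count of 0.5 in the log2 CPM, the difference of group means was -3.23, since the pair at 1 and 3 counts weighs more on that scale.

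Nts, the other peptide gene, did not share the direction of Cartpt. It was at 10.4, 16.3, 14.2 and 8.93 CPM in saline rats 1 to 4 and at 16.1, 11.7, 15.7 and 22.9 CPM in METH rats 1 to 4. The groups overlapped, with METH rat 4 above all others and METH rat 2 below saline rats 2 and 3. The mean was 12.5 ± 3.38 CPM (SD, n = 4) in the saline group and 16.6 ± 4.65 CPM (SD, n = 4) in the METH group, a log2 fold change of 0.41 (SE 0.22). It was 0.22 without METH rat 4 and 0.57 without saline rat 2. These were the highest Nts rat of each group, and they were also the rats with the highest summed level of the 9 hypothalamic markers, 87.8 CPM in METH rat 4 and 50.2 CPM in saline rat 2 against 15.2 to 21.9 CPM in the other 6 rats. In METH rat 4, Oxt, which encodes oxytocin, was at 49.8 CPM and Avp, which encodes vasopressin, at 18.3 CPM. In saline rat 2, Avp was at 28.2 CPM and Oxt at 3.75 CPM. Both sums were raised mainly by Oxt and Avp, and the list did not rise as a whole. Pomc was at 2.06 CPM in METH rat 4, the lowest of all rats. In saline rat 2 it was at 4.85 CPM, against 5.59 CPM in METH rat 3. Trh was at 13.1 CPM in METH rat 4 and 11.7 CPM in saline rat 2, beside 12.7 CPM in METH rat 3. Hcrt was at 3.37 CPM in METH rat 4, beside 3.13 CPM in METH rat 1. Pmch and Sim1 had no counts in any rat. The part of hypothalamic tissue in the Nts values was not tested.

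Dlk1 ranged widely within the saline group. It was at 18.3, 11.9, 29.4 and 6.38 CPM in saline rats 1 to 4 and at 7.05, 11.0, 8.02 and 15.2 CPM in METH rats 1 to 4. The lowest value of all was in a saline rat, so the groups overlapped. The mean was 16.5 ± 9.87 CPM (SD, n = 4) in the saline group and 10.3 ± 3.68 CPM (SD, n = 4) in the METH group. The log2 fold change of -0.67 (SE 0.37) rested largely on saline rat 3, and was -0.24 without that rat and -0.94 without saline rat 4.

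Zcchc12 showed a smaller difference than Dlk1, and its METH rats were split. It was at 175.5, 163.7, 188.1 and 150.8 CPM in saline rats 1 to 4 and at 126.8, 156.9, 110.1 and 167.5 CPM in METH rats 1 to 4. METH rats 1 and 3 lay below every saline rat, and METH rats 2 and 4 lay within the saline range. The mean was 169.5 ± 15.9 CPM (SD, n = 4) in the saline group and 140.3 ± 26.5 CPM (SD, n = 4) in the METH group. The log2 fold change was -0.27 (SE 0.12), and it was -0.17 without METH rat 3 and -0.37 without METH rat 4.

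Wfs1 and Crym differed little between the groups. Wfs1 was at 224.9, 163.5, 313.5 and 189.3 CPM in saline rats 1 to 4 and at 171.0, 235.6, 171.3 and 238.1 CPM in METH rats 1 to 4. The METH rats lay within the saline range, with means of 222.8 ± 65.5 CPM (SD, n = 4) in saline and 204.0 ± 38.0 CPM (SD, n = 4) in METH. Its log2 fold change of -0.13 (SE 0.18) turned to 0.083 without saline rat 3, and was -0.051 without METH rat 3 and -0.25 without saline rat 2. Crym was at 342.6, 241.3, 312.0 and 293.8 CPM in saline rats 1 to 4 and at 312.9, 328.0, 284.4 and 367.4 CPM in METH rats 1 to 4. The groups overlapped, the means were 297.4 ± 42.5 CPM (SD, n = 4) in saline and 323.2 ± 34.6 CPM (SD, n = 4) in METH, and the log2 fold change was 0.12 (SE 0.11). It was 0.032 without saline rat 2, the lowest Crym rat, 0.053 without METH rat 4, the highest, and 0.20 without saline rat 1.

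The members varied together from rat to rat within each group. Saline rat 3 and METH rat 4 were above the mean of their own group for 7 of 7 members on the log2 CPM scale. Saline rat 4, METH rat 1 and METH rat 3 were below it for 7 of 7, although Nts in METH rat 1 was below by only 0.0014. METH rat 2 was above for 6 of 7, saline rat 1 for 5 of 7 and saline rat 2 for 2 of 7. METH rat 4 was the highest METH rat for 6 members, and METH rat 3 the lowest for 4. The spread within groups was also wide for genes of their level. The within-group SD of log2 CPM was 0.77 for Cartpt and 1.52 for Calcr, at the 99.7th percentile of 1726 genes and the 99.6th percentile of 847 genes of like mean level. The same percentile was 99.6 for Dlk1, 98.6 for Wfs1, 94.5 for Nts, 93.2 for Zcchc12 and 85.0 for Crym.

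**Figure D2:**
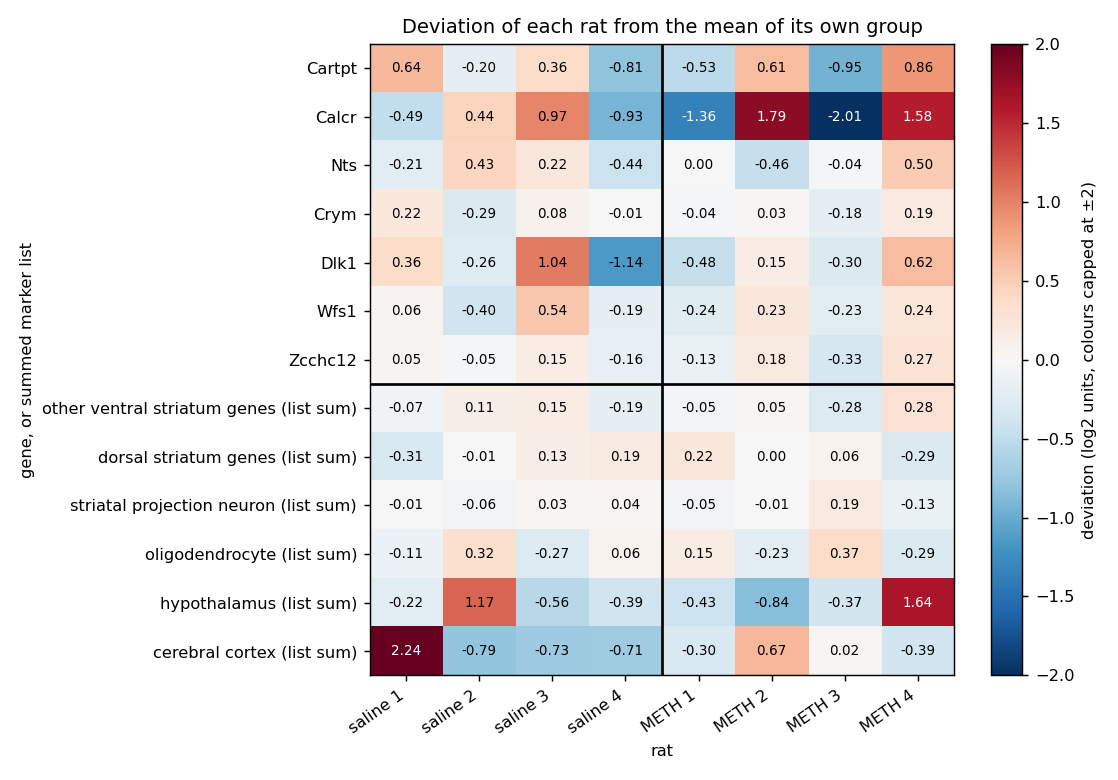
Deviation of each rat (columns) from the mean of its own group, in log2 units, for the 7 members (upper rows) and for the summed CPM of 6 marker lists (lower rows), with colours capped at 2 in either direction. Saline rat 3 and METH rat 4 are above their group mean for all 7 members, and saline rat 4, METH rat 1 and METH rat 3 are below it (Nts in METH rat 1 by 0.0014, shown as 0.00).

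After each group's mean was subtracted from log2 CPM, the correlation between members over the 8 rats was above 0 in 20 of 21 pairs and above 0.7 in 10 of 21 (47.6%). The median Pearson r was 0.661. For all pairs among the 10976 genes with a mean log2 CPM above 1, r was above 0.7 in 5.85%. Without Nts, 10 of the 15 remaining pairs were above 0.7 and the lowest r was 0.363. These correlations are descriptions over 8 rats that share dissection and sequencing, and the shared variation is what the genes were chosen for.

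Zcchc12 was closest to Cartpt. Its r was 0.950 (Spearman's rho 0.929), the 3rd highest among 10975 genes, and 0.911 without saline rat 4 and METH rat 3, the rats farthest from the median of Cartpt. Calcr followed with r = 0.828 (rho 0.786) and 0.684 without those rats. Dlk1 had r = 0.803 (rho 0.786) and 0.739 without them, so both genes kept a positive but looser relation. For Wfs1, r was 0.733 (rho 0.619) and 0.710 without those rats, and for Crym it was 0.703 (rho 0.786) and 0.749 without them. Nts stood apart from the others, with r = 0.217 (rho 0.238) and -0.129 without those rats, and its r ran from -0.148 without METH rat 4 to 0.552 without METH rat 2. Neighbours in this order from Calcr to Crym differed by less than the change from leaving out single rats, which moved r between 0.730 and 0.977 for Calcr, between 0.741 and 0.895 for Dlk1, between 0.696 and 0.864 for Wfs1 and between 0.601 and 0.911 for Crym. Without saline rat 1 and METH rat 3 together, the r to Cartpt was 0.993 for Zcchc12, 0.961 for Calcr and 0.440 for Crym. Apart from Cartpt, the closest pairs were Calcr with Zcchc12 (r = 0.925), Dlk1 with Wfs1 (0.827) and Wfs1 with Zcchc12 (0.773). On log2 CPM as measured, with the group difference left in, the r to Cartpt was 0.925 for Calcr and 0.934 for Zcchc12 but 0.0927 for Crym and -0.306 for Nts, the 2 members with a higher mean in METH.

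The genes most like each member were ranked by this r alone, over the same 8 rats. For Cartpt, the highest r values belonged to Celf4 (0.963), Oxld1 (0.960), Ggt1 (0.938), Unc13c (0.937) and Zbtb46 (0.936). The lowest belonged to Klk6 (-0.978), Rai14 (-0.977), Slc5a11 (-0.972), Jam3 (-0.971) and Srd5a1 (-0.970). An r above 0.7 to Cartpt was found in 3.27% of 10975 genes and an r below -0.7 in 4.57%. For Calcr the nearest genes were Fgf11 (0.995), Stk38l (0.982) and Pde8b (0.981). For Zcchc12 they were Unc13c (0.978), Tmem164 (0.976) and RGD1563482 (0.973), of which Unc13c was also among the nearest to Cartpt. For Dlk1, Adamts19, Ntn3 and Atg14 were each at 0.967 to 0.968. For Wfs1 they were Wdr48 (0.972), Idua (0.968) and Homer2 (0.964), and for Crym they were Tdrkh (0.990), Kiaa0895l (0.980) and Rpn1 (0.964). For Nts they were Rasd1 (0.974), Cab39 (0.959) and B4galt4 (0.956). Between METH and saline, the FDR of these genes was 0.358 or higher by edgeR.

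**Figure D3:**
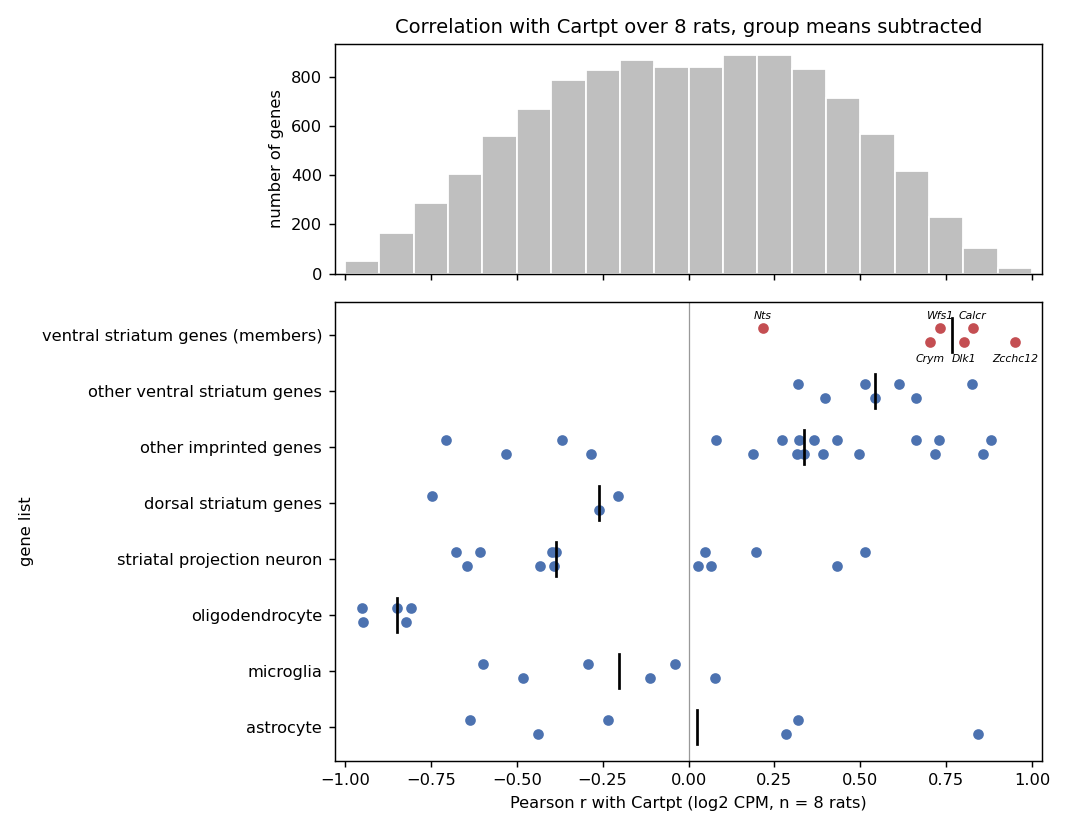
Pearson r with Cartpt over 8 rats after subtraction of the group means, as the number of genes in bins of r (upper panel, 10975 genes) and for single genes of 8 lists (lower panel, points; black lines, list medians). All members but Nts lie above 0.7, and the 5 oligodendrocyte markers lie below -0.7.

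Other genes known for ventral enrichment had fold changes of the sign of Cartpt. Both this list and the dorsal list below were chosen with earlier results of these data known. Their signs are therefore a description. The list of 8 (Drd3, Nnat, Hap1, Ntn1, Lypd1, Ahi1, Oprk1 and Calb1) had 8 of 8 log2 fold changes below 0, with a median of -0.30. For all genes the median was -0.0055, and 6172 of the 12014 were below 0. Drd3, Ahi1 and Calb1 lay within their standard error of 0, at -0.025 (SE 0.66), -0.10 (SE 0.18) and -0.062 (SE 0.099). Without METH rat 3, 5 of 8 were below 0 and the median was -0.21, without saline rat 3 these were 6 of 8 and -0.17, and without METH rat 2 the median was -0.42. Of the 8, 0 were called by edgeR, DESeq2 or limma-voom, and 2 were lower at an unadjusted p below 0.05. Lypd1, a modulator of nicotinic receptors, was at 118.7 ± 5.73 CPM (SD, n = 4) in saline and 92.2 ± 14.2 CPM (SD, n = 4) in METH, with no overlap between the groups. The log2 fold change of Lypd1 was -0.36 (SE 0.10, FDR = 0.193 by the edgeR quasi-likelihood test), and its r to Cartpt was 0.824. Oprk1, the kappa opioid receptor, had a log2 fold change of -0.50 (FDR = 0.443 by edgeR). The D3 dopamine receptor gene Drd3, a marker of the ventral part, was near the detection limit, at 0.459 ± 0.249 CPM (SD, n = 4) in saline and 0.445 ± 0.321 CPM (SD, n = 4) in METH. The r to Cartpt was above 0.7 for 1 of the 7 genes that had a value, with a median of 0.542, and the summed level of the list had an r of 0.767 to Cartpt and 0.877 to Zcchc12. Without METH rat 3 the median r was 0.365 and the r of the sum to Cartpt 0.619.

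Genes known for dorsal enrichment had fold changes of the opposite sign, 1 of them within its standard error of 0. Of 3 (Cnr1, Coch and Gpr155), 3 had a log2 fold change above 0, with a median of 0.20. Among them, 0 were called by edgeR, DESeq2 or limma-voom, and 1 was higher at an unadjusted p below 0.05. Coch lay within its standard error of 0, at 0.068 (SE 0.19), and Gpr155 was at 0.20 (SE 0.15). Cnr1, which encodes the CB1 receptor of cannabinoids, stood at 288.3 ± 42.2 CPM (SD, n = 4) in saline and 364.0 ± 66.2 CPM (SD, n = 4) in METH. This was a log2 fold change of 0.34 (SE 0.13, FDR = 0.379 by the edgeR quasi-likelihood test), with an r to Cartpt of -0.747. The summed level of the 3 genes ran from 356.6 to 502.7 CPM in saline rats and from 439.2 to 626.3 CPM in METH rats. Its r to Cartpt was -0.720, which ran from -0.840 to -0.588 when 1 rat was left out. Cnr1 had the highest level of the 3, and Coch and Gpr155 had an r of only -0.206 and -0.261. The median r of the 3 was -0.261. Without saline rat 1 or METH rat 4, 0 of the 3 were below -0.7, and without METH rat 3, 2 were. The median fold change was 0.13 without saline rat 1 and 0.35 without saline rat 4, and 1 of the 3 was below 0 without saline rat 1 and without METH rat 3. A difference between rats in how much ventral and dorsal tissue a dissection held and a difference in expression cannot be told apart in these libraries.

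Among markers of other cells, those of oligodendrocytes, the myelin-forming glia, moved most closely against the members other than Nts. The 5 used (Mbp, Mog, Mag, Mobp and Cnp) each had an r to Cartpt below -0.7, with a median of -0.849 and Mag the lowest at -0.952. The r of the summed level was -0.841 to Cartpt, -0.745 to Calcr, -0.859 to Crym, -0.687 to Dlk1, -0.912 to Wfs1 and -0.891 to Zcchc12, and 0.026 to Nts. Without METH rat 3 the r of the sum to Cartpt was -0.758, and each of the 5 genes stayed below -0.7 whichever single rat was left out. The sum did not separate the groups, with 8882 to 13455 CPM in saline rats and 9018 to 14303 CPM in METH rats, and 0 of the 5 genes were called by edgeR, DESeq2 or limma-voom or had an unadjusted p below 0.05. Endothelial, microglial and astrocyte sums also had r values below 0 to every member but Nts. The endothelial sum had an r of -0.867 to Wfs1, -0.717 to Crym and -0.630 to Dlk1, but -0.426 to Cartpt and -0.212 to Calcr. The microglial sum had an r of -0.752 to Wfs1. The part of oligodendrocyte, other glial or endothelial RNA in the shared variation was not tested. Of 13 markers of striatal projection neurons, 6 had an r to Cartpt above 0 and the median r was -0.386, which was -0.210 without METH rat 3 and -0.077 without METH rat 4. The r of their summed level to Cartpt was -0.607, and -0.274 without METH rat 3. Of these 13, 3 were higher in METH at an unadjusted p below 0.05 and 0 were called by edgeR, DESeq2 or limma-voom.

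The cortical sum of 6 markers was 84.7 CPM in saline rat 1, the rat with the highest Cartpt, and 9.28 to 19.3 CPM in the other 7 rats, with Neurod2, Tbr1 and Neurod6 at 4.06, 3.79 and 3.62 CPM there and below 1 CPM elsewhere. Without that rat the log2 fold change of Cartpt was -1.51, as given above. Of 66 marker and regional genes tested, 1 was called, the microglial chemokine receptor Cx3cr1, at 31.2 ± 4.43 CPM (SD, n = 4) in saline and 18.8 ± 3.44 CPM (SD, n = 4) in METH. The log2 fold change of Cx3cr1 was -0.73 (SE 0.14, FDR = 0.0408 by the edgeR quasi-likelihood test), and the call was lost with the replicate block and without saline rat 2, 3 or 4 or METH rat 1, 3 or 4. The summed level of the 6 microglial markers was 300.7 to 354.2 CPM in saline rats and 261.2 to 319.5 CPM in METH rats, and its r to Cartpt was -0.436. The lists for interneurons, septum and pallidum, choroid plexus, astrocytes and endothelium held 0 genes called by edgeR, DESeq2 or limma-voom and 3 at an unadjusted p below 0.05.

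Genes related to the members were taken as 9 lists of 111 genes in all, 7 by shared pathway and 2 by position or imprinting, of which 93 were tested. Of these, 0 were called by edgeR, 0 by limma-voom and 5 by DESeq2 (Pcsk1, Slco1c1, Dlk2, Hspa5 and Xbp1), which called 1.59% of all genes. At an unadjusted p below 0.05, 10 were higher and 7 lower, together 18.3%, beside 11.1% of all genes. In each list, the values of the genes with the lowest unadjusted p follow.

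Of the 11 genes that process and pack peptide precursors, 2 were higher and 1 lower at an unadjusted p below 0.05, and the median log2 fold change was 0.052. Pcsk1, a convertase that cleaves the CART and neurotensin precursors, was at 10.1 ± 2.91 CPM (SD, n = 4) in saline and 19.6 ± 4.65 CPM (SD, n = 4) in METH. Its log2 fold change was 0.96 (SE 0.21, FDR = 0.0738 by the edgeR quasi-likelihood test), and it was called without saline rat 4 or METH rat 3. The groups met at 1 point, where saline rat 4 at 13.9 CPM was just above METH rat 3 at 13.8 CPM. Furin, a convertase of the secretory pathway, had a log2 fold change of 0.31 (SE 0.09, FDR = 0.221), with no overlap.

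Of 9 receptors and peptidases for CART and neurotensin, 1 was higher at an unadjusted p below 0.05. Ntsr2, the neurotensin receptor that is abundant in astrocytes, was at 237.2 ± 23.9 CPM (SD, n = 4) in saline and 271.5 ± 21.9 CPM (SD, n = 4) in METH, a log2 fold change of 0.19 (SE 0.09, FDR = 0.433 by edgeR). Nln, the peptidase neurolysin, had a log2 fold change of -0.12 (FDR = 0.619). The receptor Ntsr1 and the proposed CART receptor Gpr160 were low, at 0.711 and 0.899 CPM in saline and 0.645 and 0.614 CPM in METH.

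The calcitonin family had 6 of 10 genes tested, since Calca, Calcb, Iapp and Adm2, which encode ligands, were too low. Calcrl, the relative of Calcr that forms the CGRP and adrenomedullin receptors, was at 6.55 ± 0.66 CPM (SD, n = 4) in saline and 4.54 ± 1.04 CPM (SD, n = 4) in METH, with no overlap. Its log2 fold change was -0.53 (SE 0.21, FDR = 0.377 by edgeR), and it was the only one of the 6 that did not overlap. Ramp1, which makes Calcr an amylin receptor, had a log2 fold change of 0.20 (FDR = 0.449). The median of the 6 was -0.12.

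Among 8 thyroid hormone genes, chosen because Crym binds that hormone, 1 was lower at an unadjusted p below 0.05. Slco1c1, a thyroxine transporter of brain capillaries and astrocytes, was at 113.8 ± 13.5 CPM (SD, n = 4) in saline and 87.3 ± 6.73 CPM (SD, n = 4) in METH, with no overlap. Its log2 fold change was -0.38 (SE 0.10, FDR = 0.132 by edgeR), and it was called without saline rat 3. Slc16a10, another thyroid hormone transporter, had a log2 fold change of 0.28 (FDR = 0.744).

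Of 14 Notch pathway genes tested, 1 was higher and 2 lower at an unadjusted p below 0.05. Dlk2, the closest relative of Dlk1, was at 42.4 ± 3.58 CPM (SD, n = 4) in saline and 58.1 ± 11.4 CPM (SD, n = 4) in METH, with no overlap. Its log2 fold change of 0.45 (SE 0.12, FDR = 0.179 by edgeR) had the sign opposite to the -0.67 of Dlk1. The ligand gene Jag1 had a log2 fold change of -0.43 (SE 0.14, FDR = 0.266), also with no overlap.

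Of 11 genes that act with wolframin or in the stress response of the endoplasmic reticulum, 3 were higher at an unadjusted p below 0.05 and 0 lower. Xbp1, a transcription factor of that response, was at 138.3 ± 11.1 CPM (SD, n = 4) in saline and 187.9 ± 25.1 CPM (SD, n = 4) in METH, a log2 fold change of 0.44 (SE 0.10, FDR = 0.0869 by edgeR), and it was called without METH rat 1. Hspa5, the chaperone BiP, was at 376.1 ± 84.1 CPM (SD, n = 4) in saline and 531.1 ± 54.2 CPM (SD, n = 4) in METH, a log2 fold change of 0.50 (SE 0.13, FDR = 0.175 by edgeR). In both genes every METH rat was above every saline rat, while Wfs1 itself overlapped. The median of the list was 0.044.

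Of 10 BMP and Smad genes tested, in the pathway in which Zcchc12 acts, 2 were higher and 1 lower at an unadjusted p below 0.05, and the median was -0.015. Crebbp, a coactivator, had a log2 fold change of 0.24 (FDR = 0.358 by edgeR), and the receptor Bmpr1b had -0.51 (FDR = 0.428).

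Calcr and Peg10 lie near each other on chromosome 4 of GRCr8, in an imprinted region that also holds Sgce, Casd1 and Bet1. Of 12 neighbours, 5 were tested and 1 was higher at an unadjusted p below 0.05. Pdk4, a kinase that restrains glucose oxidation, was at 3.06 ± 0.42 CPM (SD, n = 4) in saline and 5.25 ± 1.62 CPM (SD, n = 4) in METH, a log2 fold change of 0.77 (SE 0.25, FDR = 0.263 by edgeR). Ppp1r9a, a scaffold of dendritic spines, had a log2 fold change of -0.37 (FDR = 0.509). Sgce, which shares its promoter region with Peg10, was at 35.7 CPM in saline and 34.0 CPM in METH, a log2 fold change of -0.071 (FDR = 0.806), beside -2.31 for Calcr.

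Other imprinted genes, listed because Dlk1 and Peg10 are imprinted, had 5 log2 fold changes above 0 and 16 below among the 21 tested, with a median of -0.10 and 0 called. This list shares Nnat with the ventral list and Sgce and Ppp1r9a with the neighbours. Impact, a regulator of the eIF2 kinase Gcn2, was at 324.3 ± 13.2 CPM (SD, n = 4) in saline and 272.9 ± 20.5 CPM (SD, n = 4) in METH, with no overlap. For Impact the log2 fold change was -0.25 (SE 0.07, FDR = 0.226 by edgeR). The potassium channel gene Kcnk9 had -0.61 (FDR = 0.458). The r to Cartpt was above 0.7 for 4 of the 19 imprinted genes that had a value, namely Grb10 (0.880), Impact (0.859), Usp29 (0.729) and Ndn (0.717), where 3.27% of all genes passed that mark. It was below -0.7 for 1, Trappc9 (-0.705), where 4.57% of all genes were, and the median r of the 19 was 0.336.

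**Figure D4:**
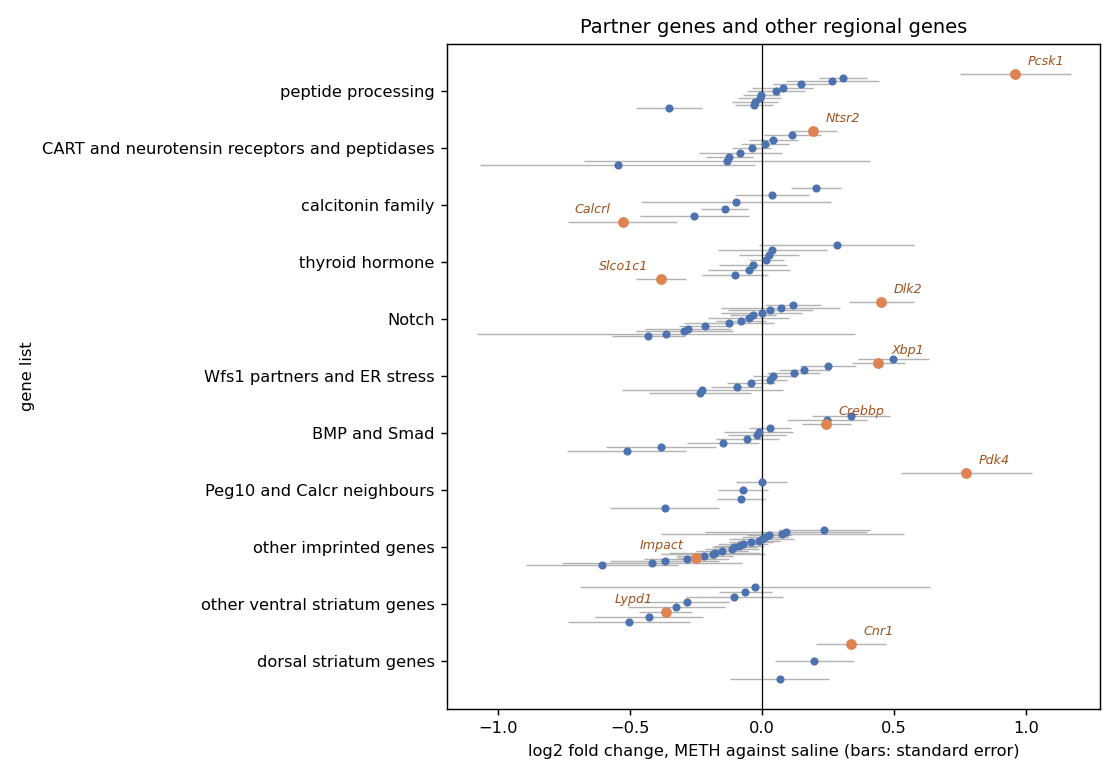
Log2 fold change of METH against saline (horizontal axis) for every tested gene of the 9 partner lists and of the ventral and dorsal lists, with bars for the standard error. The gene with the lowest unadjusted p of each list is drawn in orange and named, and none of the genes shown was called by edgeR.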

How the data were processed

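Striatal poly(A) RNA of 8 rats was sequenced in paired-end reads of 101 bp. Per the submitters' processing notes and methods, the authors removed adapters with cutadapt 1.18, used STAR 2.7.0e for alignment to rn6 and counted reads on genes with featureCounts (Subread 1.6.4). They deposited raw counts per gene symbol, with 1 column per rat and no normalization or pooling. How strand and multi-mapping reads were treated, and which annotation was used, is not given in the sources used here, so overlapping genes and near-identical copies are uncertain. Groups and rat numbers came from the sample labels.

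Counts were analysed with R 4.3.3 and edgeR 4.0.16. Genes were filtered with filterByExpr (minimum count 10), scaled by TMM and tested across all 12014 genes with the quasi-likelihood F-test and Benjamini-Hochberg adjustment. A call required an FDR below 0.05 and a mean log2 CPM above 1. Log2 CPM used a prior count of 2, and the standard error is the fold change divided by the square root of F. At the depth of 18135939 to 21211920 counts, 3 counts are 0.142 to 0.169 CPM. DESeq2 1.42.0, limma-voom (limma 3.58.1), other scalings and filters, leaving out each rat, and a replicate block by rat number were alternatives.

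The members and gene lists were chosen with earlier results of these data known. Named were the members, called genes of the lists, the 2 genes with the lowest unadjusted p in each partner list, and the genes nearest to each member by r (5 at each end for Cartpt, 3 for the others). Other genes, among them Lypd1, Oprk1, Drd3, Cnr1, Mag, Slc17a7, Oxt, Avp, Trh, Pomc, Ntsr1, Gpr160, Sgce and the imprinted genes with high or low r, were named after their values were seen. Same-numbered rats are different animals, and their deviations from the group means had correlations of -0.20 to 0.04. Promoters are RefSeq sequences of GRCr8, and no coordinates were taken across builds. 1 oligodendrocyte marker was left out of its list and is not reported here.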

Additional observations from a re-analysis of the deposited data

Results flagged for a closer look

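Within groups of 4 rats, a rat was marked when, on log2 CPM, its gap to the nearest other rat exceeded 0.829 of the group's range (Dixon's 95% limit). This was the case in 4 of 122 groups looked at (3.28%). By chance the rule marks about 1 in 20 groups. The genes looked at included Slc17a7, Oxt and Cnr1, named after their values were seen, so the share cannot be compared with that rate. Slc17a7 in saline rat 1 had a gap of 0.948 of the log2 range (65.8 CPM, the other saline rats 3.12 to 3.67 CPM). Oxt in METH rat 4 had a gap of 0.887 (49.8 CPM, the other METH rats 1.02 to 1.62 CPM). RGD1563482, one of the genes nearest to Zcchc12, had a gap of 0.831 in saline rat 4, and Cnr1 had a gap of 0.829 in saline rat 1 (226.3 CPM, the other saline rats 302.6 to 321.2 CPM). No member was marked. The first pair concerns the rats with the highest Cartpt and the highest Nts of their groups, and the part of neighbouring tissue in those values was not tested.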

How the results depend on the processing

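The 119 alternative fold changes of the members moved by less than 1 within-group SD. This limit was wide, at 1.52 for Calcr, and leaving out 1 rat could hardly shift a group mean by so much. No stability is read from that count. The sign of the Wfs1 fold change, which was not called, turned without saline rat 3. Over all alternatives the log2 fold change ran from -2.06 to -1.27 for Cartpt, -3.23 to -1.91 for Calcr, 0.22 to 0.57 for Nts, 0.032 to 0.25 for Crym, -0.94 to -0.24 for Dlk1, -0.25 to 0.083 for Wfs1 and -0.37 to -0.16 for Zcchc12. The count of called genes, 62 (54 higher and 8 lower), was 191 with DESeq2 (141 higher and 50 lower) and 37 with the replicate block, and ran from 37 (without saline rat 2) to 70 (without METH rat 1) when 1 rat was left out. Without saline rat 1 and METH rat 3 together, an alternative chosen after seeing the data, it was 36. Nothing is read from the calls of members, of which Cartpt was called by DESeq2, with every gene of at least 1 count kept, and without saline rat 4 or METH rat 4, and no other member was called in any fit. With the replicate block the fold change was -1.79 for Cartpt, -2.54 for Calcr, 0.41 for Nts, 0.13 for Crym, -0.55 for Dlk1, -0.10 for Wfs1 and -0.29 for Zcchc12. The rat numbers do not pair the samples, since same-numbered rats are different animals whose deviations had correlations of -0.20 to 0.04. Of 78 alternative correlations with Cartpt, 75 moved by less than a jackknife standard error over the 8 rats. The jackknife error comes from the same correlations with 1 rat left out, so those could hardly exceed it. No stability is read from that share. That error is wide for Nts, whose r ran from -0.306 to 0.552 and changed sign in 3 of 13. The 3 that moved further were those of Crym (0.0927 as measured, 0.440 without saline rat 1 and METH rat 3) and Wfs1 (0.562 as measured). Scaling by total counts shifted the median log2 fold change of all genes from -0.0055 to -0.041. Depth limits Calcr in the METH rats with 1 and 3 counts, and low genes such as Drd3 and Ntsr1.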
